A study of Caenorhabditis elegans with 2 samples.

Results

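The loci described here are the 261 genes annotated as miRNA on the 6 nuclear chromosomes of Caenorhabditis elegans (Ensembl annotation, assembly WBcel235, the same coordinates as ce11), out of 46890 annotated genes of all classes. All 261 were taken by their annotation, with no use of binding values, and each was examined over 500 and 1000 bp on either side of its annotated 5' end. Of these genes, 109 overlapped a protein-coding gene (called inside) and 152 did not (called outside). Among those inside, 76 lay on the strand of a gene they overlapped and 33 only on the opposite strand. The annotated 5' end is that of the precursor hairpin for nearly all of them. The median gene length was 95 bp and 2 genes were longer than 300 bp, among them let-7, whose gene model spans 1732 bp. Starts of the primary transcripts were not used here.

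The binding data are chromatin immunoprecipitation followed by sequencing (ChIP-seq) of the protein F16B12.6 carrying an eGFP tag. They were collected from whole first-stage (L1) larvae of strain OP114, whose genotype is unc-119(tm4063) III; wgIs114. The 2 biological replicates form 1 group, both carry the unc-119 mutant allele and the transgene insertion, and no untagged or wild-type library is among them, so no condition is compared with another. Because whole animals were used, a site occupied in a few cells cannot be told apart from one occupied weakly in many. A peak also marks where tagged protein was recovered, whether or not the untagged protein binds there.

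A miRNA is cut from a hairpin in a longer nuclear transcript by the Drosha and Pasha complex, exported, cut again by Dicer and loaded into an Argonaute protein. The loaded miRNA recognises target mRNAs mainly through its seed, bases 2 to 8, so that miRNAs sharing a seed form a family with overlapping targets. In C. elegans the founding members lin-4 and let-7 time larval development. Others act in families whose members cover for each other, such as the mir-35 and mir-51 families needed in embryos and the abundant mir-58 family, which resembles bantam of Drosophila.

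The sequences below belong to the miRNA families whose genes lay near the peaks that turned out to be farthest from any protein-coding start. Mature sequences were read from the WBcel235 assembly at the mature-miRNA positions of RefSeq, which gave 458 mature arms for 260 of the 261 genes, and capitals mark the seed. Positions are those of the mature arm on ce11. The first family has the seed ACCCGUA and holds 6 genes, of which mir-52 had no thresholded summit within 1000 bp.
mir-51, chrIV:11026074-11026096, minus strand: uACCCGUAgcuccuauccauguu
mir-52, chrIV:14034024-14034047, plus strand: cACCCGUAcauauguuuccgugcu
mir-53, chrIV:11027653-11027676, minus strand: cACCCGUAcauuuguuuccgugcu
mir-54, chrX:13145011-13145034, minus strand: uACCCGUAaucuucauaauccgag
mir-55, chrX:13144842-13144864, minus strand: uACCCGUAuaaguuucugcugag
mir-56, chrX:13144706-13144727, minus strand: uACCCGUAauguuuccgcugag

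The second family has the seed AUGACAC in 5 genes, 4 of them in 1 cluster on chromosome III and the other, mir-63, on chromosome X.
mir-229, chrIII:2172459-2172484, plus strand: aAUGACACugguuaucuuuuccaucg
mir-64, chrIII:2172869-2172891, plus strand: uAUGACACugaagcguuaccgaa
mir-66, chrIII:2173124-2173146, plus strand: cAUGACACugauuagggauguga
mir-63, chrX:17598785-17598808, minus strand: uAUGACACugaagcgaguuggaaa

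Also at such peaks were mir-58.1 and mir-80, whose seeds differ in their last base, and mir-90, which shares its seed with mir-50 and mir-62. The gene mir-55b, which has another seed, lay at the peak of mir-54 and is not shown.
mir-58.1, chrIV:3233314-3233335, plus strand: uGAGAUCGuucaguacggcaau
mir-80, chrIII:8865285-8865307, minus strand: uGAGAUCAuuaguugaaagccga
mir-90, chrIII:8874001-8874023, minus strand: uGAUAUGUuguuugaaugccccu

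The DNA at the 7 summits concerned is given next because these are the sites where no protein-coding transcript start lay nearby. Each run is the 100 bp centred on the summit, on the plus strand of ce11, and capitals mark GAGAG and its reverse complement.
mir-51 summit, chrIV:11026808-11026907: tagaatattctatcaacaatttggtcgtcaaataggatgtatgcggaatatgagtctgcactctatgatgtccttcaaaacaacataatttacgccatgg
mir-53 summit, chrIV:11027732-11027831: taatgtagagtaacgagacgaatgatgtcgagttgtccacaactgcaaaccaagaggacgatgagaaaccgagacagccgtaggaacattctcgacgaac
mir-54 summit, chrX:13145244-13145343: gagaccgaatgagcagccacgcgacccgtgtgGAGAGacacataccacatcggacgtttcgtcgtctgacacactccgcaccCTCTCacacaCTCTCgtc
mir-90 summit, chrIII:8874284-8874383: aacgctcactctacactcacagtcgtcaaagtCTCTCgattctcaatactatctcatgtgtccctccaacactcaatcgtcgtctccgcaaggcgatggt
mir-80 summit, chrIII:8865572-8865671: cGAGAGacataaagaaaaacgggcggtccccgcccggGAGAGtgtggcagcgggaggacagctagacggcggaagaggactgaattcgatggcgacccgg
mir-229 summit, chrIII:2172070-2172169: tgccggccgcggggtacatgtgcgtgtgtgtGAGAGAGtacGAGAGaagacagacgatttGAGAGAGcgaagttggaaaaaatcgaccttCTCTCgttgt
mir-58.1 summit, chrIV:3232848-3232947: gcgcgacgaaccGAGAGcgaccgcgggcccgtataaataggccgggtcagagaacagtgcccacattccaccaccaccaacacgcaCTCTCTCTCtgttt

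The authors deposited a thresholded list of 2183 peaks for both replicates pooled, and relaxed lists of 30000 entries, peaks and background together, for the pool and for each replicate. The summit is the position of highest signal that the authors' caller gave each entry. The signal value is the caller's own, and no source states how it is scaled. Signal values are therefore read within 1 list at a time, and lists are compared by rank. The thresholded peaks were the 2183 strongest entries of the pooled list, with signal from 21.7 to 1543 and a median of 47.9. Read numbers were not part of the data used, and the depth of each library is unknown. Shares carry 95% Wilson intervals, which cover counting error only and treat genes as independent, which clustered miRNA genes are not.

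A thresholded summit lay within 500 bp of the 5' end of 19 of the 261 miRNA genes, or 7.28% (interval 4.71 to 11.1%). The same held for 5.59% of all annotated genes and 10.2% of protein-coding genes, and both values lie inside the interval for miRNA genes. Within 1000 bp there were 27 miRNA genes (10.3%, 7.21 to 14.6%), against 7.02% of all annotated genes and 12.5% of protein-coding genes. The 46890 annotated genes include 15363 piRNA genes, of which 0.215% had a summit within 500 bp and 0.605% within 1000 bp. Among the other 31527 genes, a set formed after the values were seen, the shares were 8.21% at 500 bp and 10.2% at 1000 bp, and both lie inside the intervals for miRNA genes. Of the genome, 2.15% lay within 500 bp of a thresholded summit and 4.20% within 1000 bp.

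miRNA genes inside protein-coding genes and those outside differed little at 500 bp and more at 1000 bp. At 500 bp, 10 of 109 inside genes had a summit (9.17%, 5.06 to 16.1%), against 9 of 152 outside genes (5.92%, 3.15 to 10.9%). At 1000 bp the counts were 17 inside (15.6%, 9.97 to 23.6%) and 10 outside (6.58%, 3.61 to 11.7%). The intervals overlapped at both distances and the difference was not tested. Of the inside genes added at 1000 bp, mir-64, mir-65 and mir-66 share the peak of mir-229, and mir-56 shares that of mir-54. Both peaks were already counted at 500 bp, so these genes are not separate observations of the wider gap. The order at 500 bp turned round when only miRNA genes spanned by a protein-coding gene on their own strand were taken as inside, with 5 of 74 (6.76%, 2.92 to 14.9%), against 14 of the other 187 (7.49%, 4.51 to 12.2%). At 1000 bp that definition gave a smaller gap, with 9 of 74 (12.2%, 6.53 to 21.5%) against 18 of 187 (9.63%, 6.18 to 14.7%). The genome itself gave 1.67% of bases inside protein-coding genes and 2.96% of bases outside within 500 bp of a summit, and 4.07% inside and 4.41% outside within 1000 bp. Among the inside genes, 5 of the 33 on the opposite strand were called at 500 bp (15.2%, 6.65 to 30.9%), as were 5 of the 76 on the same strand (6.58%, 2.84 to 14.5%), again with overlapping intervals.

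**Figure D1:**
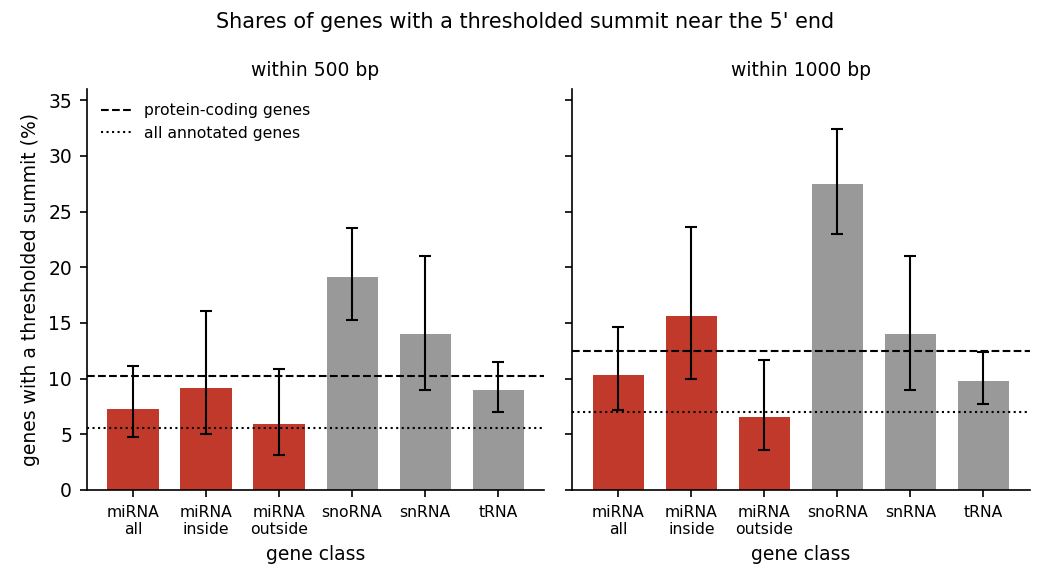
Share of genes with a thresholded summit within 500 bp (left) and 1000 bp (right) of the annotated 5' end, in percent, by gene class. Bars are shares, error bars 95% Wilson intervals, and lines mark protein-coding and all annotated genes. The bar for all miRNA genes is 7.28% at 500 bp and 10.3% at 1000 bp, and at both distances the bar for snoRNA genes (19.1% and 27.5%) is the highest.

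Fewer miRNA genes than snoRNA, snRNA or tRNA genes had a summit very close to the 5' end, and piRNA genes had the lowest share of these classes. Within 100 bp of a summit were 2 of 261 miRNA genes (0.766%, 0.210 to 2.75%), namely mir-5549 and mir-53, against 49 of 346 snoRNA genes (14.2%, 10.9 to 18.2%), 13 of 129 snRNA genes (10.1%, 5.98 to 16.5%) and 46 of 612 tRNA genes (7.52%, 5.68 to 9.88%). These intervals do not overlap that of the miRNA genes, and piRNA genes, with 8 of 15363 (0.0521%, 0.0264 to 0.103%), lay below it. At 500 bp the shares were 7.28% for miRNA genes, 19.1% for snoRNA genes, 14.0% for snRNA genes and 8.99% for tRNA genes. The curve for miRNA genes kept climbing with distance, to 15.7% at 2000 bp and 39.5% at 10000 bp, while that for tRNA genes began high and was at 13.7% and 28.4%. For protein-coding genes the share was 2.23% at 100 bp, 16.1% at 2000 bp and 37.5% at 10000 bp. The median miRNA gene was 15052 bp from the nearest thresholded summit, and the farthest was 236262 bp away.

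**Figure D2:**
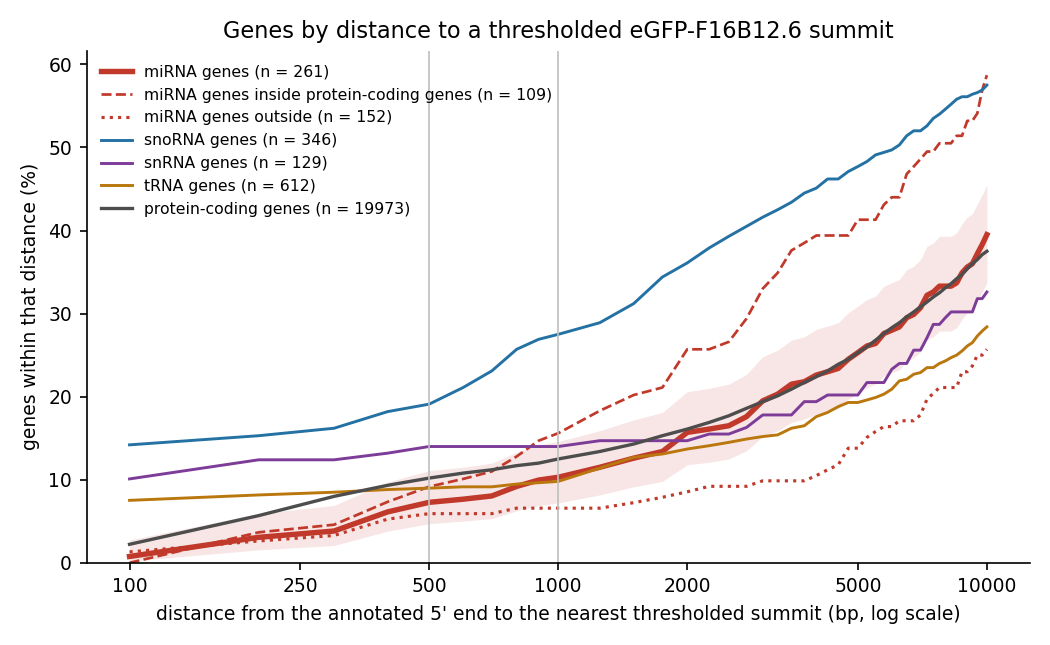
Cumulative share of genes (percent) by distance from the annotated 5' end to the nearest thresholded summit (bp, log scale), for miRNA genes (thick line, with the 95% Wilson interval shaded), miRNA genes inside and outside protein-coding genes, and 4 other classes. At 100 bp the miRNA curve starts at 0.766%, under all 4 other classes, and at 2000 bp it is at 15.7%, beside 16.1% for protein-coding genes.

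By chromosome, the share of miRNA genes with a summit within 500 bp was highest on III and lowest on V. Chromosome III had 6 of 27 miRNA genes (22.2%, 10.6 to 40.8%), against 18.3% of its protein-coding genes. Chromosome X, with 74 miRNA genes the richest in them, had 4 (5.41%, 2.12 to 13.1%), against 4.98% of its protein-coding genes. On chromosome I the count was 3 of 33 (9.09%, 3.14 to 23.6%), against 16.4% of protein-coding genes, and on II it was 4 of 49 (8.16%, 3.22 to 19.2%), against 10.3%. Chromosome IV had 2 of 50 (4%, 1.10 to 13.5%), against 9.45%. None of the 28 miRNA genes on chromosome V was called (0 to 12.1%, while 3 counts would be 10.7%), against 5.73% of its protein-coding genes. Every protein-coding value lay within the interval of the miRNA genes of the same chromosome.

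The 19 genes belonged to 16 peaks, 0.733% of the thresholded list (0.452 to 1.19%), and 20 peaks served all 27 genes within 1000 bp. The 16 peaks were mostly weak for this list. Their median signal was 30.1 (23.0 to 543), against 47.9 over all 2183, and 12 of them (75%, 50.5 to 89.8%) were not among the 1091 strongest. The summit was upstream of the miRNA 5' end for 16 of 19 genes (84.2%, 62.4 to 94.5%). Among the 74 miRNA genes with only a weaker pooled entry within 500 bp, the strongest such entry was upstream for 42 (56.8%, 45.4 to 67.4%). The intervals of these 2 shares overlapped slightly. Of the 16 peaks, 8 had the summit in a protein-coding promoter window, which began 1000 bp upstream and ended 200 bp downstream of a gene's 5' end (50%, 28 to 72%), against 76.1% of all thresholded peaks (74.3 to 77.8%). These intervals did not overlap, although a summit had to be near a miRNA hairpin to enter the first of them.

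Apart from 1 gap, each of these peaks overlapped an entry of both replicates. The thresholded list was itself made from both replicates, so this agreement is a description. Of the 16, 13 overlapped an entry among the 2183 strongest of replicate 1, 12 among the 2183 strongest of replicate 2, and 10 among both. The same counts were not made over all thresholded peaks. Of all 2183, 2 overlapped no entry at all of replicate 1 and 22 none of replicate 2. The summits in the replicates were a median of 28 bp apart (1 to 161 bp, 15 peaks), against 15 bp over the 2159 thresholded peaks found in both. The peak at mir-2213 overlapped no entry of replicate 2, whose strongest summit within 500 bp of that gene ranked 2722. The weakest ranks at any of the 16 peaks were 2661 in replicate 1, at mir-80, and 3394 in replicate 2, at mir-54.

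**Figure D3:**
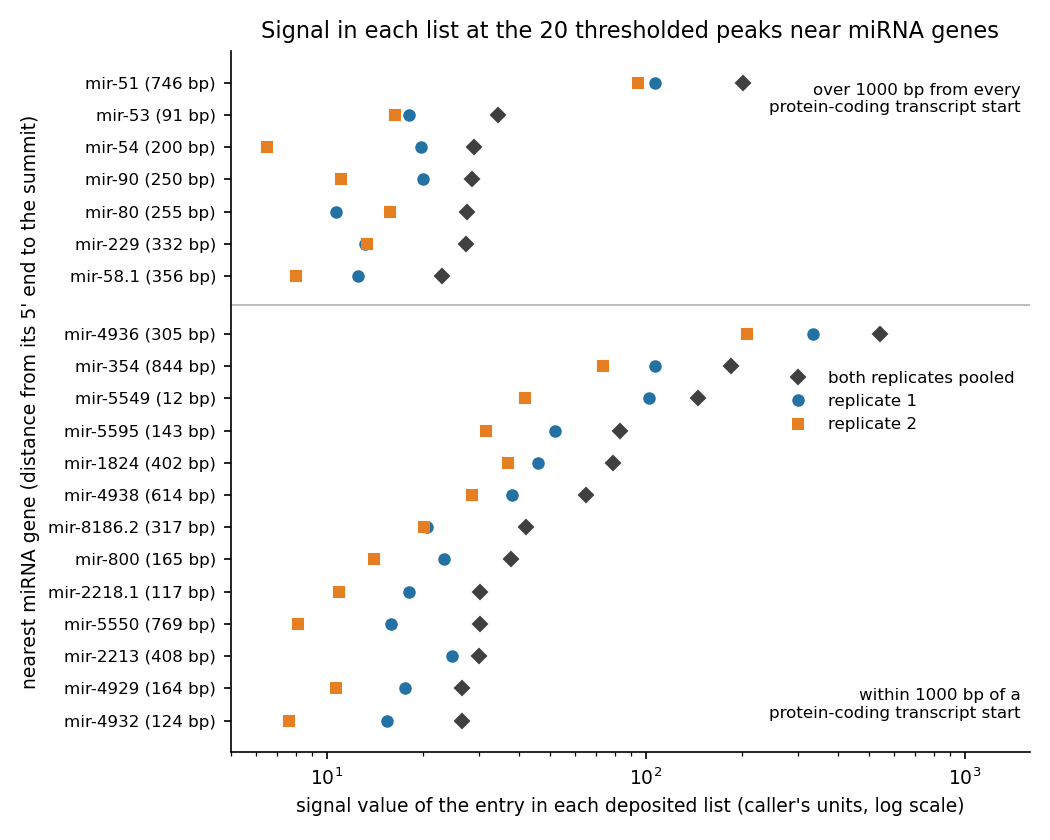
Signal value (caller's units, log scale) of the entry overlapping each of the 20 thresholded peaks within 1000 bp of a miRNA gene, in the pooled, replicate 1 and replicate 2 lists, with the peaks over 1000 bp from every protein-coding transcript start above the line. Apart from mir-51 (pooled signal 202), the upper peaks lie between 23.0 and 34.5, while the lower ones reach 543 at mir-4936, and mir-2213 has no replicate 2 point.

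Peaks in protein-coding promoter windows included the strongest within 500 bp of a miRNA gene. The strongest lay 305 bp upstream of mir-4936 (outside, chromosome III), with signal 336 in replicate 1, 208 in replicate 2 and 543 in the pool, where it ranked 81. Its summit was 271 bp upstream of nduf-9, a gene of mitochondrial complex I, and so nearer to that start than to the hairpin. The next strongest within 500 bp was 12 bp upstream of mir-5549 (outside, III), with signal 102.5 in replicate 1, 41.8 in replicate 2 and 146 in the pool (rank 500). Its summit lay 156 bp upstream of rfc-4, which encodes a clamp loader subunit of DNA replication, in a promoter region shared with the translation elongation factor gene eef-1A.1. The peak 402 bp downstream of the 5' end of mir-1824 (inside Y87G2A.18, opposite strand, I) had 46.0 in replicate 1, 37.0 in replicate 2 and 79.1 in the pool, and lay 67 bp from the start of its host. All 3 ranked between 72 and 765 in both replicates.

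The other promoter peaks were weaker. One peak served mir-8186.2 (317 bp upstream) and mir-8186.1 (376 bp downstream), which are annotated on opposite strands of 1 stretch of chromosome II, and had signal 20.7 in replicate 1, 20.2 in replicate 2 and 42.2 in the pool. Its nearest protein-coding gene was gmeb-1, 524 bp away. The peak 165 bp upstream of mir-800 (outside, X) had 23.3 in replicate 1, 14.1 in replicate 2 and 37.8 in the pool, and lay 551 bp upstream of R04A9.3. In both cases the hairpin was nearer to the summit than the protein-coding start was. The peak 117 bp upstream of mir-2218.1 (I) had 18.2 in replicate 1, 10.9 in replicate 2 and 30.3 in the pool, in the promoter window of maea-1. The peak 408 bp upstream of mir-2213 (outside, III) had 24.7 in replicate 1 and 30.01 in the pool, in the window of panl-2. That 124 bp upstream of mir-4932 (outside, I) had 15.4 in replicate 1, 7.63 in replicate 2 and 26.5 in the pool, in the 5' UTR of smn-1, the gene of the survival motor neuron protein. Over the 8 promoter peaks the signal ran from 26.5 to 543 with a median of 39.99, against a median of 56.3 over all 1661 thresholded promoter peaks. Over the 8 peaks outside promoter windows the median was 27.95, against 33.4 over all 522 thresholded peaks outside them. Of these 8 peaks, 7 were not among the 1091 strongest, as were 69.7% of the 522.

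At 2 further loci the summit was outside the promoter windows of genes but close to an alternative protein-coding start. The peak 143 bp upstream of mir-5595 (chromosome II) was in an intron of nurf-1, the gene of a chromatin remodelling subunit, and 280 bp from the 5' end of a further nurf-1 transcript. It had signal 52.0 in replicate 1, 31.5 in replicate 2 and 83.0 in the pool (rank 700). The peak 164 bp upstream of mir-4929 (II) was in a coding exon of E01G4.3, 17 bp from the 5' end of a transcript, with 17.7 in replicate 1, 10.7 in replicate 2 and 26.5 in the pool. Both hairpins thus lay beside an annotated internal start of the gene that holds them.

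The remaining 6 peaks within 500 bp, and 7 of the 20 within 1000 bp, had no protein-coding transcript 5' end within 1000 bp, as had 362 of all 2183 thresholded peaks. They held 13 miRNA genes within 1000 bp, 8 of them within 500 bp. This grouping was made after the values had been seen and carries no test. By seed, they were 5 of the 6 genes with ACCCGUA, 4 of the 5 with AUGACAC, 1 of the 6 with GAGAUCA (mir-80), 1 of the 3 with GAUAUGU (mir-90), the 1 gene with GAGAUCG (mir-58.1), and mir-55b. In all 7 the summit lay upstream of the nearest miRNA gene, and at 2 of them a run of hairpins followed downstream of the summit.

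The mir-51 family lay at 3 of these peaks. The strongest was on chromosome IV, 746 bp upstream of mir-51, with signal 107 in replicate 1, 94.8 in replicate 2 and 202 in the pool, at ranks 457, 383 and 425 of the 3 lists. It was intergenic, between mir-51 and mir-53. The second, on the other side of mir-53 and 91 bp upstream of it, had 18.1 in replicate 1, 16.4 in replicate 2 and 34.5 in the pool (rank 1447), with the nearest protein-coding transcript start, that of the heme-responsive gene hrg-5, 1403 bp away. The third lay on X in an intron of F09A5.3, 3693 bp from that gene's start, and 200 bp upstream of mir-54, 370 bp upstream of mir-55 and 507 bp upstream of mir-56. These 3 hairpins ran in a row on the minus strand, and mir-55b, annotated on the plus strand across mir-55, had the summit 464 bp downstream. The peak had signal 19.8 in replicate 1 (rank 1540) and 6.48 in replicate 2 (rank 3394), and 29.0 in the pool (rank 1686), so replicate 2 did not hold it among its 2183 strongest entries. The other member, mir-52, was 37105 bp from the nearest thresholded summit, and its strongest pooled entry within 500 bp, 67 bp away, ranked 5230 with signal 9.73.

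The mir-64 cluster on chromosome III lies within the gene gcn-1, whose product acts in translational control. Its peak was in a gcn-1 intron 20175 bp from the start of that gene, 332 bp upstream of mir-229, the first hairpin of the cluster. It lay 728 bp upstream of mir-64, 882 bp upstream of mir-65 and 988 bp upstream of mir-66, all on the strand of the host. The signal was 13.2 in replicate 1 (rank 2205), 13.4 in replicate 2 (rank 1525) and 27.3 in the pool (rank 1794). It missed the 2183 strongest entries in replicate 1 but not in replicate 2, and the summits of the replicates were 90 bp apart. The gene with the same seed on X, mir-63, was 147266 bp from a thresholded summit.

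Both members of the bantam-like family that were called had weak peaks. The peak 255 bp upstream of mir-80 (III, intergenic) had 10.7 in replicate 1 (rank 2661), 15.8 in replicate 2 (rank 1304) and 27.5 in the pool (rank 1778), and the nearest protein-coding start was 11506 bp away. That 356 bp upstream of mir-58.1 (IV, in an intron of Y67D8A.2, 3953 bp from a transcript start) had 12.5 in replicate 1 (rank 2319), 8.01 in replicate 2 (rank 2489) and 23.0 in the pool (rank 2075). Neither replicate alone placed the mir-58.1 peak among its 2183 strongest entries. The genes with the seed of mir-80 that were not called were all over 10000 bp from a thresholded summit. The distance was 48624 bp for mir-81 and 52906 bp for mir-82, which lie within gid-2 on X, and 14479 bp for mir-2209.1, 74921 bp for mir-58.2 and 75114 bp for mir-58c on IV. The peak 250 bp upstream of mir-90 (III, in an intron of K01F9.2, 2794 bp from its start) had 20 in replicate 1 (rank 1523), 11.1 in replicate 2 (rank 1821) and 28.5 in the pool (rank 1717).

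**Figure D4:**
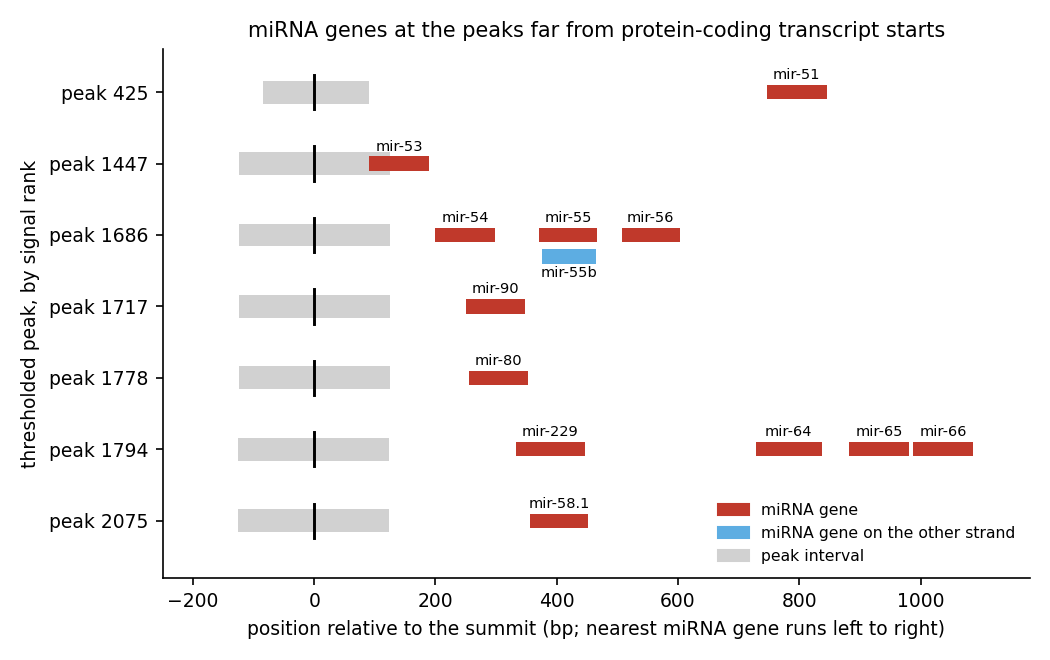
Positions (bp from the summit, with the nearest miRNA gene running left to right) of miRNA genes at the 7 thresholded peaks over 1000 bp from every protein-coding transcript start, each gene drawn at the summit nearest to it. Every peak interval (grey) lies left of the genes on the main strand or reaches the first of them, as at mir-53, 91 bp from its summit, and clusters of 3 and 4 genes follow the summits at mir-54 and mir-229.

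In the summit sequences printed above, GAGAG on either strand was found at 5 of the 7 peaks, those of mir-54, mir-90, mir-80, mir-229 and mir-58.1 (71.4%, 35.9 to 91.8%). The motif was chosen after these sequences had been read. It was found at 53.6% of the 362 thresholded summits as far from protein-coding starts (48.4 to 58.7%), at 35.8% of all thresholded summits and at 16.8% of the weaker pooled entries, in windows of the same 100 bp. Of the 1092 thresholded summits not among the 1091 strongest, 43.9% held it. So did 8 of the 16 peaks within 500 bp of a miRNA gene (50%, 28 to 72%). Of the 13 peaks within 1000 bp that had a protein-coding transcript start nearby, 4 held it (30.8%, 12.7 to 57.6%). The median G and C content was 52% at the 7 summits, 49% at the 362, 47% at all thresholded summits and 37% at the weaker entries, and its part in these shares was not tested. The motif ACGCAG shares no stretch of 3 letters with GAGAG on either strand. Earlier work on these data had singled it out, so its shares are a description only. It was at none of the 7 (0 to 35.4%) and at 3 of the 16 peaks within 500 bp (18.8%, 6.59 to 43.0%). It was at 18.8% of all thresholded summits, 25.7% of the 362 and 3.59% of the weaker entries. A match is a run of letters and not a site shown to be bound.

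Between 500 and 1000 bp lay the summits of 8 genes. Besides mir-51, mir-56, mir-64, mir-65 and mir-66, which are described above, these were mir-354, mir-4938 and mir-5550. The peak 844 bp upstream of mir-354 (inside the ribosomal protein gene rps-20, chromosome I) had signal 107 in replicate 1, 73.3 in replicate 2 and 185 in the pool, in the promoter region shared by rps-20 and ekl-4. The peak 614 bp downstream of the 5' end of mir-4938 (III) had 38.2 in replicate 1, 28.6 in replicate 2 and 65.1 in the pool, in the promoter window of Y37B11A.3. That 769 bp downstream of the 5' end of mir-5550 (IV, inside the kinase gene kgb-1) had 15.9 in replicate 1, 8.11 in replicate 2 and 30.2 in the pool. All 3 summits were nearer to a protein-coding start than to the hairpin.

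On a list of 43 well-known miRNA genes, 6 had a thresholded summit within 500 bp and 11 within 1000 bp. Of the other 218 miRNA genes, 13 and 16 had one. Among all annotated genes the shares were 5.59% within 500 bp and 7.02% within 1000 bp. The list was drawn up with earlier results of these data known, and several of its genes share a peak. These counts are therefore a description. The 6 were mir-53, mir-54, mir-55, mir-58.1, mir-80 and mir-229, at 5 peaks, none of them in a promoter window, while 8 of the 11 other peaks were in one. No member of the let-7 family (4 genes), the lin-4 family (2), the mir-35 cluster (7), the mir-42 cluster (3), the mir-2 family (4), the mir-72 family (3) or the pair mir-61 and mir-250 had one within 1000 bp.

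The heterochronic genes, which time larval development, were mostly far from thresholded summits. For let-7 the nearest lay 1835 bp upstream of the annotated start, in the promoter of C05G5.2, with signal 57.7 in replicate 1, 39.1 in replicate 2 and 99.5 in the pool (rank 623). Its relatives mir-48, mir-241 and mir-84 were 8543, 10317 and 34125 bp away. For lin-4, which lies inside F59G1.4, the distance was 19927 bp, and for its relative mir-237 it was 17451 bp. Neither lin-4 nor mir-237 had a pooled relaxed entry within 500 bp. Replicate 2, but not replicate 1, had an entry within 500 bp of each. Its signal was 6.56 at lin-4 (rank 3317) and 3.57 at mir-237 (rank 12758).

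Tissue-specific and stress-related single genes were likewise not called. The distance was 10933 bp for lsy-6, which sets left-right asymmetry of a pair of taste neurons, 11193 bp for mir-1, expressed in muscle, and 16856 bp for mir-124, expressed in sensory neurons. It was 2820 bp for mir-60, an intestinal miRNA, 27273 bp for mir-34, a stress-related miRNA, and 1791 bp for mir-71, known for its part in lifespan. The peak near mir-71 was in an intron of its host ppfr-1, with signal 16.4 in replicate 1, 15.3 in replicate 2 and 31.8 in the pool. For mir-35, the first of its embryonic cluster, the distance was 2594 bp.

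In the relaxed pooled list, which holds background, 99 miRNA genes had a summit within 500 bp (37.9%, 32.3 to 44.0%), against 31.7% of all annotated genes and 36.6% of protein-coding genes. There were 48 inside (44.0%, 35.1 to 53.4%) and 51 outside (33.6%, 26.5 to 41.4%). Replicate 1 alone gave 95 genes and replicate 2 gave 85, of which 43 had an entry in both. Most of these entries were far from the threshold. The 74 genes with a pooled entry within 500 bp and no thresholded summit within 1000 bp had a median signal of 6.54 (4.56 to 19.4) and a median rank of 13336, against a lowest thresholded signal of 21.7.

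The 5 strongest of these weaker entries lay near mir-253 (signal 19.4, rank 2381), mir-2214 (17.5, rank 2597), mir-124 (15.3, rank 2907), mir-228 (14.2, rank 3105) and mir-86 (14.1, rank 3132). The entry at mir-253 was 28 bp upstream of its host F44E7.5, and that at mir-124, 350 bp upstream of the hairpin, was in an intron of trpa-1, a channel gene. For the mir-124 entry replicate 1 gave 5.92 (rank 7384) and replicate 2 gave 8.27 (rank 2395), so the 2 lists placed it far apart. The mir-86 entry differed more, with 11.9 in replicate 1 (rank 2419) and 2.43 in replicate 2 (rank 25361). For the mir-228 entry, 238 bp upstream of the hairpin and 10653 bp from any protein-coding start, replicate 1 gave 7.62 (rank 4239) and replicate 2 gave 5.74 (rank 4328).

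Because hairpins can lie far inside a primary transcript, the window was also taken from 2000 bp upstream to 500 bp downstream, a choice made after the data were seen. This gave 36 of the 261 miRNA genes. Other gene classes were not examined over this window, so the count has no share to stand beside it. Of the 17 added, 11 had their summit over 1000 bp upstream, and 10 of these 11 summits were in promoter windows of protein-coding genes, the exception being that of mir-71. One was the peak 1871 bp upstream of mir-1828, an intronic miRNA of pash-1, whose summit was 81 bp upstream of the start of pash-1.

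Thresholded summits fell in the promoter windows of some genes tied to miRNAs, pash-1 and alg-5 among them. The windows of other central genes of miRNA processing and silencing, namely drsh-1, dcr-1, alg-1, alg-2, ain-1 and ain-2, held none. Of 33 protein-coding genes listed for miRNA processing, silencing and its regulation, 32 were found in the annotation, and in 15 of them a thresholded summit fell within the promoter window (46.9%, 30.9 to 63.6%), against 11.8% of protein-coding genes. The list was drawn up with earlier results of these data known, and includes several housekeeping genes of RNA metabolism, so this count is a description. Among the processing genes, pash-1, encoding the RNA-binding partner of Drosha, had signal 47.8 in replicate 1, 22.5 in replicate 2 and 66.9 in the pool. By contrast drsh-1, the gene of Drosha, was 2976 bp from its nearest summit, and dcr-1, that of Dicer, was 5267 bp away. The double-stranded RNA binding partner of Dicer in RNA interference, rde-4, had 31.8 in replicate 1, 13.8 in replicate 2 and 50.6 in the pool.

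Among the Argonaute genes alg-5 had a summit in its window, 857 bp upstream of its 5' end (9.28 in replicate 1, 20.3 in replicate 2 and 27.5 in the pool). The main miRNA Argonautes did not, with alg-1 46879 bp from a summit and that near alg-2 lying 358 bp downstream of its 5' end, outside the window. The alg-2 summit was nonetheless nearer and stronger (45.1 in the pool) than that of alg-5, so this contrast rests on the shape of the window. The summits counted for xpo-1, lin-46, cgh-1 and nhl-2 lay 809, 862, 770 and 869 bp upstream. Whether another gene's start lay nearer to the summits of the listed genes was not examined. The nuclear transport genes xpo-1, xpo-2 and ran-1 had pooled signals of 31.8, 202 and 67.4. Among the effector and regulator genes, cgh-1, a helicase of repressed mRNA granules, and nhl-2, a cofactor of let-7 silencing, had 63.9 and 86.1. The deadenylase gene ccf-1 had 46.1 and the poly(A)-binding genes pab-1 and sut-2 had 49.5 and 363. Their counterparts ccr-4 and pab-2 had no summit in the window, the nearest being 10540 and 130709 bp away. Nor had ain-1 (68677 bp) and ain-2 (6214 bp), which encode the GW182-like partners of the miRNA Argonautes, the decapping genes dcap-1 (15790 bp) and dcap-2 (17208 bp), or the exonuclease genes xrn-1 (8942 bp) and xrn-2 (1212 bp). The genes tsn-1 and vig-1, encoding components of the RNA-induced silencing complex, had 39.7 and 73.9, and hrpk-1, encoding an hnRNP K protein, had 87.3. The heterochronic gene lin-46 had 170, while lin-28, whose product blocks let-7 maturation, and lin-41, a target of let-7, had their nearest summits 845 bp downstream and 1434 bp upstream of the 5' end, outside the window.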

How the data were processed

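eGFP-F16B12.6 was profiled by ChIP-seq in L1 larvae in 2 biological replicates, which form 1 group. Per the deposited readme notes, each replicate's relaxed list came from its own alignments and a control, the pooled list from both replicates, and the thresholded (optimal IDR, irreproducible discovery rate) list from all 3 relaxed lists. The sources used here do not give the aligner, the peak caller, their versions or the IDR threshold. Each deposited list has 10 columns without a header. By the layout of such files, column 7 is the signal the authors' caller assigned, column 9 a deposited −log10 q value, which was not used for ranking, and column 10 the summit offset. Lists on ce10 were not used.

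Summits were compared with 5' ends from Ensembl release 115, in 1-based ce11 coordinates, and with RefSeq symbols, mature miRNAs and sequence of the same assembly. A miRNA gene overlapping a protein-coding gene by at least 1 bp on either strand was called inside. Entries of 2 lists were matched by an overlap of at least 1 bp. The mature sequence of 1 gene of a family shown is not reported here. Negative or upstream positions are on the strand of the miRNA. Named genes were every miRNA gene called at 500 bp, those called at 1000 bp, the 5 strongest below the threshold, and listed families with or without an entry. The members, lists and rules were chosen with earlier results of these data known, so no p-values were computed, and no enrichment was tested. In simulated data the lookup found 800 of 800 planted genes (20 runs over 261 genes). Alternatives were other distances, the peak interval in place of the summit, the 1091 strongest peaks alone, counting neighbours once, and replacing the thresholded list by the 2183 top entries of 1 replicate. Python 3.11.15, NumPy 2.4.6, pandas 2.3.3, SciPy 1.17.1 and Matplotlib 3.10.9 were used.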

Additional observations from a re-analysis of the deposited data

How the results depend on the processing

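The count of 19 miRNA genes within 500 bp (10 inside, 9 outside) depended most on distance and on signal. At 250 bp it was 9 (5 inside, 4 outside), at 1000 bp 27 with 17 inside, and from 2000 bp upstream to 500 bp downstream, added after seeing the data, 36 with 24 inside. With the 1091 strongest peaks alone it was 4 (2 inside, 2 outside). Counting neighbouring miRNA genes once gave 18 of 227, with 9 of 95 inside and 9 of 132 outside. With inside limited to miRNA genes spanned by a gene on the same strand, the counts were 5 of 74 inside genes (6.76%) and 14 of 187 outside genes (7.49%), which turned the order of the shares round. Replacing the thresholded list by as many of the strongest entries of 1 replicate gave 15 to 16 genes in all, 7 to 8 inside and 8 to 8 outside. Without replicate 1, 13 of the 19 were shared, and mir-4932, mir-2213, mir-58.1, mir-54, mir-55 and mir-55b were lost, while mir-2218.2 and mir-87 were gained. Without replicate 2, 16 were shared, and mir-229, mir-80 and mir-58.1 were lost. Summits with no nearer protein-coding 5' end left 15 genes, or 14 by transcript 5' ends, a choice added after seeing the data. The pooled relaxed count of 99 was 54 at 250 bp and 85 to 95 with 1 replicate, and the count of 15 miRNA pathway genes was 14 to 17 with 1 replicate and 10 to 11 with other windows or the 1091 strongest peaks. No paired analysis was possible because there is 1 group. Depth is unknown, so a gene without a summit was not detected at this depth and may still be bound. The number of reads behind each entry and the start sites of most primary miRNA transcripts limit what the counts can show.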
